A study of Mus musculus with 18 samples.

Results

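Netrin 1 (Ntn1), netrin 4 (Ntn4) and the netrin receptors Neo1, Dcc, Unc5a, Unc5b, Unc5c and Unc5d were examined as a set of 8 genes among the 20703 genes measured. The set was chosen by a value in these libraries, because Ntn1 was among the largest rises in Nsd1-KO cells at day 2, and its receptors and Ntn4 were then taken by name. The cells were E14 mouse embryonic stem cells (mESCs). WT cells were set against KO-1 and KO-2, a pair of independent lines that each came from a single sorted cell and carried a homozygous CRISPR-Cas9 deletion of Nsd1 exon 5, made in cells with a 3×Flag tag knocked into Nsd1. Whether the WT libraries carried the same tag is not given in the sources used here. At day 0 the cells grew with LIF, the cytokine that sustains mESCs, on feeder cells (MEFs, embryonic fibroblasts of the mouse that can no longer divide), and at days 2 and 4 both LIF and the MEFs had been withdrawn from the monolayer culture. Poly-A RNA was sequenced in 2 replicates per line and time point, a total of 18 libraries with 2 WT and 4 Nsd1-KO libraries per day. The gene counts of a library summed to between 9309874 and 23921193, and the shallowest were the 2 WT day 2 libraries, at 9309874 and 9356867 against 14595828 to 19445827 in Nsd1-KO day 2 libraries. The replicates are labelled as biological, but no label says how the cultures were separated, so the p-values measure the spread between these libraries. The Nsd1-KO libraries come from 2 clones and the WT libraries carry a single line label. Differences between lines as such therefore cannot be told apart from those of genotype.

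Netrins are secreted proteins related to laminins, and netrin 1 is the cue best known for steering commissural axons towards the floor plate of the neural tube. DCC and its relative neogenin (Neo1) mediate attraction to netrin 1, whereas receptors of the UNC5 family mediate repulsion, alone or together with DCC. Several of these receptors are also called dependence receptors, because they can signal for cell death when no ligand is bound. In mESCs, netrin 1 acting through neogenin and UNC5B has been described as a regulator of self-renewal and exit from naive pluripotency. NSD1 itself is a histone methyltransferase that places dimethylation on lysine 36 of histone H3.

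Promoter sequence from RefSeq (GRCm38.p6) was found for 5 of the 8 genes, Neo1, Unc5a, Unc5b, Unc5c and Ntn4, as the 250 bases upstream of the annotated start. The pair shown belongs to the receptors with the highest counts in mESCs, which moved in opposite directions in the Nsd1-KO libraries. Both are written 5′ to 3′ on the gene's own strand, with each CpG dinucleotide in capitals. The Neo1 window lies at chr9:59036442-59036691 and the Unc5b window at chr10:60831582-60831831, both on the minus strand.
Neo1: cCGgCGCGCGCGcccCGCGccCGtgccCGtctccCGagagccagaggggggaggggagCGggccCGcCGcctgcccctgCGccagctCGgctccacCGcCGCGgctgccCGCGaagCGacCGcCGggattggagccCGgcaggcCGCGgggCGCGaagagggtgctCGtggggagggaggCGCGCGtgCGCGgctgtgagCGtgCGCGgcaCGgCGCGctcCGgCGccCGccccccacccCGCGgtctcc
Unc5b: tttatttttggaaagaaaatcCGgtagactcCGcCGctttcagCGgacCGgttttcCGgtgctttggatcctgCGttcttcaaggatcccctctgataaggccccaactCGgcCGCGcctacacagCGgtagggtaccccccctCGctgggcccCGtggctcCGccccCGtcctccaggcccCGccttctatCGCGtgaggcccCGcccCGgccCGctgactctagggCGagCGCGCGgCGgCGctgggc
The Neo1 window held 45 CpG dinucleotides and the Unc5b window 27, against a median of 6 over the 32851 promoter windows of this length in the table. As many or fewer CpG dinucleotides were found in 99.7% of those windows for Neo1 and in 92.4% for Unc5b. The windows of Ntn4, Unc5a and Unc5c held 26, 25 and 23. On both strands, the letters GGAATG (the core of the TEAD motif) and TGANTCA (AP-1) were found in none of the 5 windows, and were present in 12.6% and 6.75% of all windows. The letters AGGCCT (ZFX) occurred once, in the Unc5a window, and in 8.7% of all windows. None of these motifs lies within another, and a match or its absence is a description of the window only.

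Nsd1 was measured first as a check of the labels. The normalised read counts (counts divided by the size factor of the library) of Nsd1 were 3374 and 3660 in WT libraries at day 0, 2773 and 3344 at day 2, and 2425 and 2111 at day 4. The Nsd1-KO libraries held 635 to 837 at day 0, 854 to 1024 at day 2 and 575 to 1103 at day 4, below every WT library of the same day. The log2 fold change of the deposited values was -1.69 ± 0.11 (SE) at day 0, -1.27 ± 0.11 at day 2 and -1.06 ± 0.11 at day 4. The counts cover all exons of Nsd1, not only the deleted one. The identity of the cells was checked with 8 mESC markers (Pou5f1, Nanog, Sox2, Zfp42, Esrrb, Tdgf1, Utf1 and Dppa5a), all of them detected, whose normalised counts summed to between 77068 and 86161 in the libraries of day 0. Their sum at day 4 was 18175 and 18789 in WT libraries and 23878 to 27235 in Nsd1-KO libraries, with Sox2 higher by 2.72 and Esrrb by 2.15 on the log2 scale and Tdgf1, the most abundant of them in WT, at a log2 fold change of -1.07.

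The ligand Ntn1 was higher in Nsd1-KO cells at every day measured. Its gene spans chr11:68209364-68400823 on the minus strand (GRCm38, GENCODE M21), with 8 exons in its longest transcript. In WT libraries the normalised counts of Ntn1 were 456 and 449 at day 0, 150 and 110 at day 2, and 327 and 277 at day 4. In KO-1 they were 2396 and 2286 at day 0, 3119 and 3507 at day 2, and 3800 and 3808 at day 4. In KO-2 they were 2006 and 1992 at day 0, 4149 and 4118 at day 2, and 3147 and 3198 at day 4. The lowest Nsd1-KO library of any day therefore lay above the highest WT library of any day. Group means fell in the order Nsd1-KO day 2 (3723 ± 500, SD, n = 4), Nsd1-KO day 4 (3488 ± 365), Nsd1-KO day 0 (2170 ± 203), WT day 0 (453 ± 5.22, n = 2), WT day 4 (302 ± 35.7) and WT day 2 (130 ± 28.1). The ranges of Nsd1-KO day 2 and day 4 overlapped, and no other neighbours in this order did.

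The comparison at day 2 is the one that chose Ntn1, so its values are given as a description with no test. Ntn1 was 28.6-fold higher in the Nsd1-KO than in the WT mean at day 2, a log2 fold change of 2.83 on the scale of the deposited values and of 4.84 on the recovered counts. Rises were ranked on the deposited scale among genes that met the criteria for a call and had all Nsd1-KO libraries above both WT libraries. In that ranking Ntn1 was second, between Sohlh2 at 2.95 and Sfmbt2 at 2.63, followed by Peg10 at 2.53 and Dnajc6 at 2.41. The rank is a description as well. Across all genes 6.38% met the criteria for a call at day 2.

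At day 0, before LIF and MEFs were withdrawn, the Ntn1 mean was 4.79-fold higher in Nsd1-KO than in WT libraries. The log2 fold change was 1.47 ± 0.09 (SE, limma adjusted p = 5.25e-10), with all 4 Nsd1-KO libraries above both WT libraries. A gene was called when its Benjamini-Hochberg adjusted p over all genes was under 0.01 and its absolute log2 fold change over 0.58. By these criteria Ntn1 was the only member called at day 0, 1 of 8, against 2.61% of all genes, and limma-voom on the recovered counts, which called 13.3% of all genes, also called Unc5a and Unc5d lower. At day 4 the Ntn1 mean was 11.6-fold higher in Nsd1-KO libraries, with a log2 fold change of 2.31 ± 0.09 (limma adjusted p = 5.74e-14), again with 4 of 4 libraries above both WT libraries. Ntn1 was then 1 of 3 members called of 8, with Neo1 and Unc5b, against 7.58% of all genes, and limma-voom, which called 23.9% of all genes, added Unc5c and Unc5d. These fold changes are on the variance-stabilised scale, which compresses low values, and on the recovered counts limma-voom gave log2 fold changes of 2.25 at day 0 and 3.54 at day 4.

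The gap in Ntn1 widened between day 0 and day 4. The Nsd1-KO effect at day 4 exceeded that at day 0 by 0.84 ± 0.13 on the log2 scale (limma adjusted p = 6.42e-05). Ntn1 was 1 of 3 members called for this difference between effects, with Unc5b and Unc5c, against 6.93% of all genes, and limma-voom, which called 14.9% of all genes, added Unc5a. Within WT cells the log2 change of Ntn1 from day 0 to day 4 was -0.28 ± 0.11 (limma adjusted p = 0.0435), which was not called. Within Nsd1-KO cells it was 0.56 ± 0.08 (limma adjusted p = 4.04e-06), just short of the fold threshold, and it passed with KO-1 alone (0.58) and on the recovered counts (0.69).

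**Figure D1:**
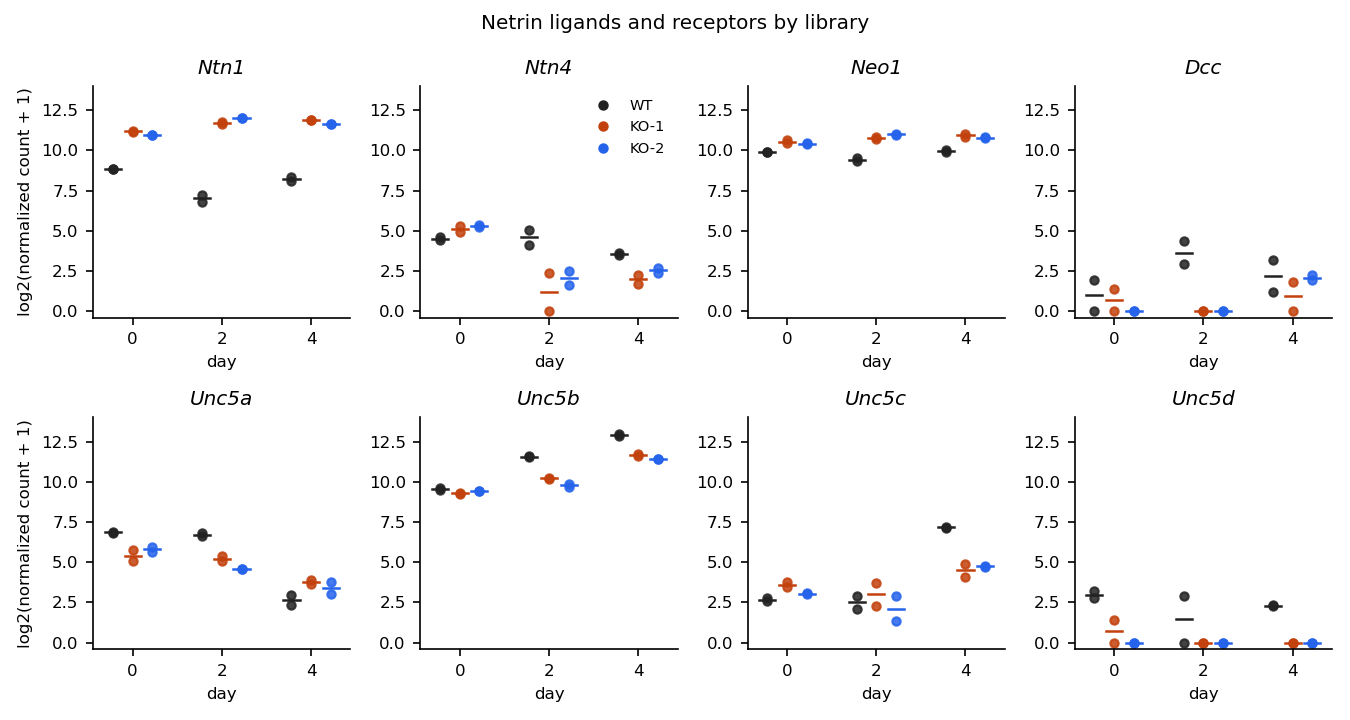
Each panel plots 1 gene, with the day after LIF and MEF withdrawal on the horizontal axis and log2(normalised count + 1) on the vertical axis. Points are single libraries (WT black, KO-1 orange, KO-2 blue) and short bars are the mean of the 2 libraries of a line. Ntn1 and Neo1 sit higher in both Nsd1-KO lines at every day, Unc5b and Unc5c are highest in WT at day 4, and Dcc and Unc5d are low, with most of their Nsd1-KO libraries at 0.

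Other cell types that could carry Ntn1 were followed with marker lists. For feeder fibroblasts, the sum over 8 markers at day 0 was 3155 and 3061 in WT libraries and 4469 to 5256 in Nsd1-KO libraries, with Col1a1 the most abundant. At that day 3 of the 8 were called higher in Nsd1-KO (Col1a1, 0.68; Col3a1, 0.62; Col1a2, 0.60 on the log2 scale), 1 was called lower (Pdgfrb, -0.67), and Lum was at 0 in all day 0 libraries. The same sum was lower in Nsd1-KO libraries at day 2, at 567 to 725 against 1013 and 1170. It was also lower at day 4, at 565 to 1263 against 2647 and 2768. MEFs had been withdrawn by both of these days, so the sum there is not a measure of feeder cells. Which cells carried these markers then was not tested. For neural progenitors and neurons, 6 of 7 markers were in the table and their sum was 1519 and 1614 in WT against 2679 to 3007 in Nsd1-KO libraries at day 0, and 963 and 1025 against 2690 to 3178 at day 4. Tubb3, the most abundant of them, was higher by 1.08 and 1.14 at these days, Sox1 was higher by 1.72 at day 4, Elavl3 was called lower at day 0 (-0.62), and Dcx was at 0 in WT at day 0. For the floor plate, where netrin 1 is made in the embryo, the sum over 5 markers was 31.7 and 35.2 in WT against 20.6 to 36.4 in Nsd1-KO libraries at day 0, 212 in both WT libraries against 35.8 to 73.2 at day 2, and 50.3 and 58.1 against 72.4 to 162 at day 4. The most abundant of these was Spon1 at day 0 and in WT at days 2 and 4 (means of 197 at day 2 and 20.8 at day 4), and Foxa2 in Nsd1-KO cells at days 2 and 4 (41.8 and 59.2). Foxa2 at day 4 had a mean of 15.5 in WT, 3.82-fold below Nsd1-KO cells (log2 fold change 0.28, limma adjusted p = 0.005), and none of its Nsd1-KO libraries (33.8 to 109) overlapped the WT range (12.1 to 18.9). Shh, the ligand secreted by the floor plate, was at 0 in both WT libraries and at 12.2 to 28 in Nsd1-KO libraries at day 4, at least 7.6-fold higher against a floor of 3 counts per library (log2 fold change 0.34, limma adjusted p = 2.33e-05). Both were under the fold threshold on the variance-stabilised scale, where limma called none of the 5 at day 0 or day 4 and 1 lower at day 2, while limma-voom called Shh higher at day 4 (5.51, adjusted p = 1.85e-04). The part of such cells in the Ntn1 values was not tested, and in bulk RNA more cells of a type and more RNA per cell cannot be told apart.

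The kit named in the labels (TruSeq RNA Library Prep Kit v2) does not mark the strand, and the strand setting of the counting is not given in the sources used here. A sense intronic gene (Gm12305) and a microRNA gene (Mir6406) lie within Ntn1 in GENCODE M21 and an antisense gene (Gm31954) in RefSeq, so reads from these and from Ntn1 cannot be told apart where they overlap if the libraries are unstranded. The 3 measured genes on either side of Ntn1 (Cfap52, Stx8, C78197, Pik3r5, Pik3r6 and Mfsd6l) were not called at day 0 or day 4, with log2 fold changes between -0.26 and 0.09.

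Ntn4, a netrin of basement membranes, was measured at low counts. Its normalised counts were 20.1 and 23 in WT and 28.9 to 40.8 in Nsd1-KO libraries at day 0, 16.3 and 32.4 against 0 to 4.68 at day 2, and 10.1 and 11.4 against 2.26 to 5.47 at day 4. The Nsd1-KO libraries were thus the higher ones at day 0 and the lower ones at days 2 and 4. Neither the day 0 log2 fold change of 0.11 ± 0.05 (limma adjusted p = 0.108) nor that of -0.10 ± 0.05 at day 4 (limma adjusted p = 0.106) was called. Between days 0 and 4 the log2 change of Ntn4 in Nsd1-KO cells was -0.32 ± 0.04 (limma adjusted p = 1.07e-06), under the fold threshold on this scale, and the recovered counts gave -3.13.

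Of the 4 other netrin genes, limma called none at day 0, and at day 4 Ntn3 was called higher and Ntng1 lower (50% of the list, against 7.58% of all genes). Limma-voom on the recovered counts called Ntn3 higher at day 0 as well. Ntn3, a further secreted netrin, held 8.63 and 11.7 normalised counts in WT at day 0, 50.2 and 50.5 at day 2, and 37.2 and 49.9 at day 4. In Nsd1-KO libraries Ntn3 held 54.1 to 78.5, 365 to 490 and 469 to 633 at the same days. The Ntn3 means were thus 6.86-fold higher in Nsd1-KO at day 0 and 12.8-fold higher at day 4, and the log2 fold change at day 4 was 1.25 ± 0.06 (limma adjusted p = 1.85e-12). Ntng1, a membrane-anchored netrin G that does not bind DCC or UNC5 receptors, held 65.4 and 85.9 normalised counts in WT at day 4 and 0 to 2.8 in Nsd1-KO libraries (log2 fold change -0.62 ± 0.05, limma adjusted p = 2.56e-09). Neither fit called Ntn5 or Ntng2 at day 0 or day 4, with Ntn5 at 0 to 6.48 normalised counts and Ntng2 at 0 to 44 in the libraries of all days.

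Neo1 moved in the same direction as its ligand. Its gene lies at chr9:58874687-59036441 on the minus strand, with 29 exons. WT libraries held 969 and 947 normalised counts of Neo1 at day 0, 720 and 647 at day 2, and 1056 and 956 at day 4. Nsd1-KO libraries held 1344 to 1566, 1677 to 2063 and 1750 to 2097 at these days. Every Nsd1-KO library lay above every WT library, while the WT ranges at days 0 and 4 and the Nsd1-KO ranges at days 2 and 4 overlapped. Neo1 was 1.49-fold higher in Nsd1-KO at day 0 (log2 fold change 0.40 ± 0.07, limma adjusted p = 2.32e-04), below the fold threshold. At day 4 it was 1.86-fold higher and called (0.64 ± 0.07, limma adjusted p = 2.88e-07). At day 2 the ratio of means was 2.77, a log2 fold change of 1.00, given as a description. The Nsd1-KO effect on Neo1 at day 4 exceeded that at day 0 by 0.24 ± 0.10 (limma adjusted p = 0.0847), which was not called, with a 95% interval of 0.03 to 0.45.

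Dcc, the receptor with which netrin signalling was first worked out in axons, was close to undetected. Its read counts were 0 and 2 in WT at day 0, 12 and 4 at day 2, and 8 and 2 at day 4. All 4 Nsd1-KO libraries were at 0 at day 2, and those of days 0 and 4 held 0 to 4 reads. At this depth no difference was detectable for Dcc at day 0 (log2 fold change -0.04 ± 0.06, limma adjusted p = 0.621) or day 4 (-0.05 ± 0.06, limma adjusted p = 0.493). Neo1 was thus the member of the DCC and neogenin pair that carried nearly all reads.

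Unc5b carried most of the UNC5 family's reads, and was the receptor called lower in Nsd1-KO cells at day 4. Its gene lies at chr10:60762593-60831581 on the minus strand, with 17 exons. Normalised counts of Unc5b in WT libraries were 777 and 718 at day 0, 3134 and 2939 at day 2, and 7893 and 7379 at day 4. In KO-1 they were 604 and 639, then 1141 and 1226, then 3070 and 3334. In KO-2 they were 688 and 693, then 935 and 825, then 2764 and 2770. Unc5b values were higher at each later day in WT, KO-1 and KO-2, and the Nsd1-KO libraries of day 4 overlapped the WT libraries of day 2. The remaining groups followed without overlap, in the order WT day 4 above these, then Nsd1-KO day 2, WT day 0 and Nsd1-KO day 0.

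At day 0 the difference in Unc5b was not called (log2 fold change -0.11 ± 0.09, limma adjusted p = 0.369, 95% interval -0.29 to 0.07). At day 2 the WT mean was 2.94-fold the Nsd1-KO mean, a log2 fold change of -1.18, given as a description. At day 4 the WT mean was 2.56-fold the Nsd1-KO mean, and the log2 fold change of -1.20 ± 0.09 was called (limma adjusted p = 4.15e-10), with 4 of 4 Nsd1-KO libraries below both WT libraries. From day 0 to day 4 Unc5b rose 10.2-fold in WT (log2 change 2.65 ± 0.10, limma adjusted p = 1.12e-14). Unc5b was 1 of 3 members called for this WT time course, with Unc5a and Unc5c, against 13.8% of all genes, and limma-voom called the same 3 against 34.7% of all genes. In Nsd1-KO cells Unc5b rose 4.55-fold (1.56 ± 0.07, limma adjusted p = 2.57e-13) and was the only member called, 1 of 8, against 6.5% of all genes, where limma-voom called 5, against 27.5% of all genes (Ntn1, Ntn4, Unc5a, Unc5b and Unc5c). The difference between the Nsd1-KO effects of day 4 and day 0 was -1.09 ± 0.12 (limma adjusted p = 7.29e-07). Markers of mesoderm moved with Unc5b at day 4, where the sum over 6 of them was 24722 and 25072 in WT and 98 to 294 in Nsd1-KO libraries. T was the most abundant of these markers, 4 of 6 were called lower in Nsd1-KO, and Msgn1 and Meox1 were at 0 in all Nsd1-KO libraries of day 4. At day 2 the mesoderm sum was 68.1 and 76.6 in WT and 25.4 to 50.6 in Nsd1-KO libraries. The part of mesoderm cells in the Unc5b values was not tested.

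The other UNC5 receptors were scarce, and each had its own course. Unc5a held 114 and 118 normalised counts in WT and 32.1 to 59.8 in Nsd1-KO libraries at day 0, and 96.1 and 113 against 23.2 to 41 at day 2. By day 4 it was at 4.03 and 6.95 in WT and at 7.3 to 14.1 in Nsd1-KO libraries, so the order of the groups was the opposite of that at day 0. The log2 fold change of Unc5a was -0.30 ± 0.05 at day 0 (limma adjusted p = 1.12e-04), under the fold threshold on this scale, and 0.08 ± 0.05 at day 4 (limma adjusted p = 0.224). On the recovered counts the day 0 value was -1.21, which was called. The difference between the Nsd1-KO effects of day 4 and day 0 was 0.38 ± 0.07 (limma adjusted p = 3.17e-04), under the fold threshold, and 2.18 on the recovered counts (limma-voom adjusted p = 0.00769), which was called. From day 0 to day 4 Unc5a fell 21.2-fold in WT (log2 change -0.66 ± 0.06, limma adjusted p = 4.50e-09), and in Nsd1-KO cells the means were 48.9 and 11.3 at these days.

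Unc5c was near the limit of detection in all groups but those of day 4. WT libraries held 5.03 and 5.75 normalised counts at day 0, 6.52 and 3.24 at day 2, and 147 and 139 at day 4. Nsd1-KO libraries held 7.1 to 12.8 at day 0, 1.56 to 12.2 at day 2 and 16 to 29.3 at day 4. The rise in WT was 26.5-fold (log2 change 0.75 ± 0.05, limma adjusted p = 3.52e-10), while the Nsd1-KO means were 9.31 and 24.4. At day 4 the WT mean was 5.86-fold the Nsd1-KO mean. The log2 fold change of -0.55 ± 0.05 (limma adjusted p = 7.52e-09) fell just under the fold threshold on the compressed scale, and on the recovered counts it was -2.61 and called. The difference between the Nsd1-KO effects of day 4 and day 0 was -0.60 ± 0.07 (limma adjusted p = 6.66e-07), and it lost its call under quantile normalization (-0.57), without KO-1 day 4 replicate 2 (-0.58) and with KO-2 alone (-0.56).

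Unc5d held 10 and 4 reads in the WT libraries of day 0, 4 and 0 at day 2, and 4 and 6 at day 4. Of the 12 Nsd1-KO libraries 11 were at 0, and KO-1 day 0 replicate 2 held 2 reads. The log2 fold change was -0.19 ± 0.05 at day 0 (limma adjusted p = 0.00463) and -0.16 ± 0.05 at day 4 (limma adjusted p = 0.0106), with the day 4 WT mean at least 1.54-fold higher when a floor of 3 reads per library stands for the Nsd1-KO libraries. On the recovered counts Unc5d was called lower at both days, but all its values rest on 10 or fewer reads.

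**Figure D2:**
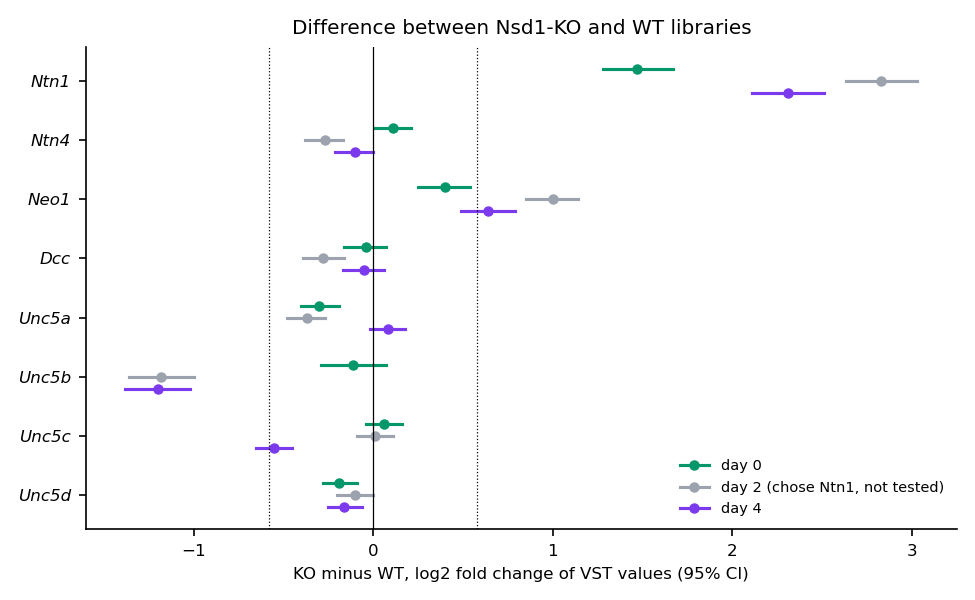
The horizontal axis is the log2 fold change of the deposited variance-stabilised values, Nsd1-KO minus WT, for each of the 8 genes. Points are estimates and bars their 95% intervals at day 0 (green), day 2 (grey, the comparison that chose Ntn1, not tested) and day 4 (purple), and dotted lines mark the fold threshold of 0.58. Ntn1 and Neo1 lie to the right at each day, and Unc5b lies at -1.18 and -1.20 at days 2 and 4 but at -0.11 at day 0.

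The lines KO-1 and KO-2 were compared to see whether a member differed between clones. None of the 8 members was called by limma at day 0, day 2 or day 4, where 0.029%, 0.0435% and 0.251% of all genes were called. Limma-voom called no member either, against 0.159%, 0.232% and 2.23% of all genes. At an unadjusted p under 0.05 limma counted 1 and 2 of the 8 members at days 0 and 4, against 14.8% and 25.3% of all genes. The day 2 count of 3, beside 12.3% of all genes, includes Ntn1, which the day 2 values chose, and is a description only. The largest differences were those of Ntn1 and Unc5b at day 2, where KO-1 was below KO-2 in Ntn1 (log2 difference -0.28 ± 0.06, given as a description) and above it in Unc5b (0.28 ± 0.06, limma adjusted p = 0.0206). At day 4 KO-1 was above KO-2 in both (0.22 for Ntn1, limma adjusted p = 0.0177, and 0.17 for Unc5b, limma adjusted p = 0.0567). The RNA of Nsd1 itself was also higher in KO-1 at day 4. Its log2 difference of 0.41 (limma adjusted p = 0.00294) was under the fold threshold, and limma-voom called it (0.66, limma-voom adjusted p = 0.00154). Neither fit called Nsd1 between clones at day 0 or day 2.

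The balance of ligand and receptor was then taken within each library, as normalised counts per kilobase of the longest protein-coding transcript. The level of Ntn1 per kilobase was 0.606 of that of Unc5b in WT at day 0 (0.586 and 0.625 in the 2 libraries), 0.0426 at day 2 and 0.0394 at day 4. In Nsd1-KO libraries this ratio was 3.33 at day 0 (2.87 to 3.96), 3.75 at day 2 (2.73 to 4.99) and 1.17 at day 4 (1.14 to 1.24). Ntn1 was therefore below Unc5b per length in all 6 WT libraries and above it in all 12 Nsd1-KO libraries. With the shortest transcripts, where that of Ntn1 has 944 bases against 5874 in the longest, the WT day 0 ratio was 2.34, so this order at day 0 depends on the isoform in use. The ratio of Ntn1 to Neo1 was 0.594, 0.238 and 0.376 in WT at days 0, 2 and 4, and 1.9, 2.47 and 2.35 in Nsd1-KO cells. The day 2 ratios include the values that chose Ntn1.

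**Figure D3:**
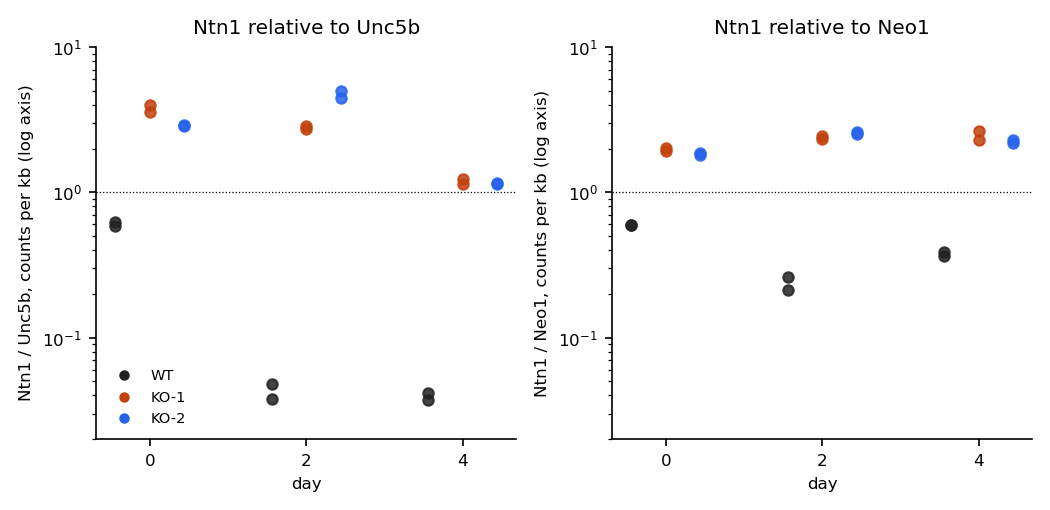
The vertical axes, on a log scale, give the ratio of Ntn1 to Unc5b (left) and of Ntn1 to Neo1 (right) in normalised counts per kilobase, and the horizontal axes the day. Points are single libraries (WT black, KO-1 orange, KO-2 blue) and the dotted line marks equal levels. All WT libraries lie below the line and all Nsd1-KO libraries above it, and the Nsd1-KO ratio to Unc5b comes closest to the line at day 4.

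Per length, Neo1 and Unc5b were at nearly the same level in WT mESCs at day 0, at 130 ± 2.11 and 127 ± 7.18 (SD, n = 2) normalised counts per kilobase. Ntn1 followed at 77 ± 0.888, Unc5a at 29 ± 0.692 and Ntn4 at 5.92 ± 0.561, with Unc5d at 0.767 ± 0.202, Unc5c at 0.559 ± 0.053 and Dcc at 0.139 ± 0.197. Neo1 and Unc5b did not differ beyond their spread on this scale. Unc5d (0.91 and 0.624) lay above Unc5c (0.522 and 0.597), with only 4 to 10 reads per library for either gene. The order of the 8 genes depends on the transcript length. With the shortest transcripts the same means were 788 for Neo1, 479 for Ntn1, 232 for Unc5a and 205 for Unc5b. By day 4 in WT, Unc5b led at 1301 ± 62 and Neo1 was at 136 ± 9.55, and in Nsd1-KO cells Ntn1 led at 594 ± 62.1 (n = 4), above Unc5b at 509 ± 46.6 and Neo1 at 253 ± 21. With the shortest transcripts Unc5b (2090) still led in WT and Ntn1 (3695) in Nsd1-KO cells at day 4, but Neo1 (1538) was then above Unc5b (817) in the latter. Unc5b made up 80.7% of the summed UNC5 level per length in WT mESCs before withdrawal, 95% at day 2 and 98.7% at day 4. In Nsd1-KO cells these shares were 89.5%, 95.6% and 99%. With the shortest transcripts they were 46.5%, 79.7% and 97.6% in WT and 64.5%, 82.3% and 96.5% in Nsd1-KO cells, and Unc5a was then above Unc5b in WT at day 0.

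The course of Ntn1 over the 18 libraries was compared with that of the 8963 genes whose values reached at least 1 log2 unit above the minimum of the table. Pearson's r is given as a description, since all points come from the same libraries and lines and the day 2 libraries among them chose Ntn1. Among the 10 genes most alike were Igf2bp2, Epb41l4a, Cacna1a, Neo1 and Pcdh19 (r = 0.98 each), and Pgap6, Abr, Snx25 and Zcchc2 (0.97 each). Its own receptor Neo1 was thus the fourth of 8963, and Ntn1 was in turn the gene most like Neo1 (0.98). Igf2bp2, an RNA-binding protein, was higher in Nsd1-KO by 0.93, 1.57 and 1.26 at days 0, 2 and 4, and Pcdh19, a protocadherin, by 1.40, 2.04 and 1.76. The genes with the most opposite course were Zfp217 (-0.95), Ier5l (-0.94) and Dusp9 (-0.94), a phosphatase of MAP kinases that was lower in Nsd1-KO by log2 fold changes of -1.84, -2.25 and -1.35. Spearman's rho kept 3 of the 10 and Pearson's r over the 6 group means kept 5. Unc5b correlated weakly with Ntn1 (-0.38) and more with Unc5c (0.79), and the gene most like it was Adgrl2 (0.99), a latrophilin that binds FLRT proteins, which are themselves ligands of UNC5 receptors.

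**Figure D4:**
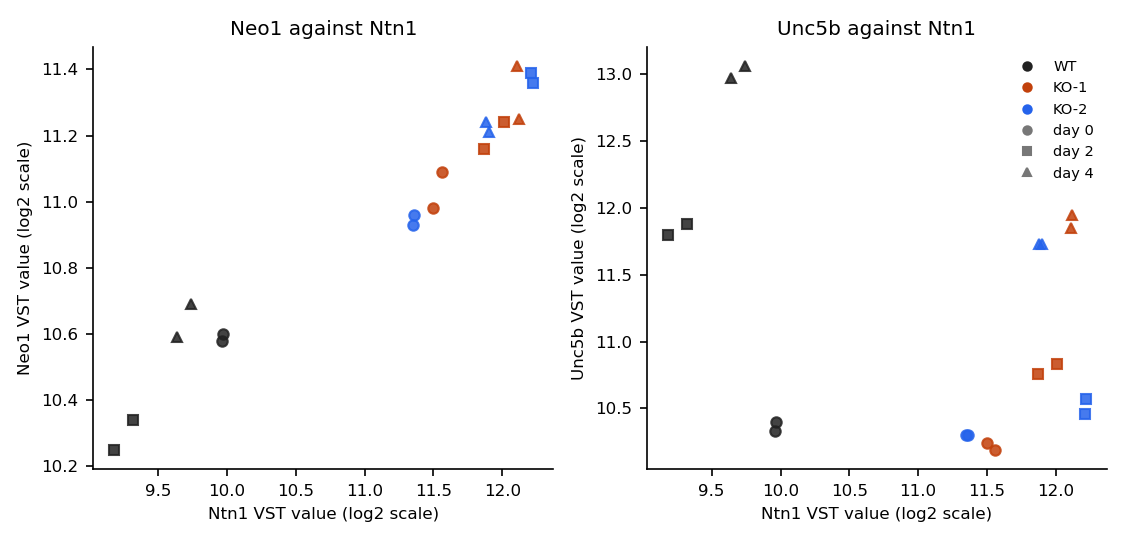
The deposited variance-stabilised values (log2 scale) of Neo1 (left) and Unc5b (right) are plotted against those of Ntn1, with 1 point per library, colours for lines and shapes for days. The r of Neo1 with Ntn1 is 0.98 over the 18 libraries, and every Nsd1-KO library lies above every WT library in both genes. Unc5b separates by day within WT and within Nsd1-KO libraries.

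The rest of the pathway was read from lists of genes that bind, transmit or resemble netrin signals. Each list is described by its counts and its median log2 fold change, beside a median over all genes of 0.00 at day 0 and 0.00 at day 4. The calls are those of limma, which called 2.61% of all genes at day 0 and 7.58% at day 4, and limma-voom called 13.3% and 23.9%. Among 9 other receptors related to DCC or able to bind netrins, limma called none at day 0 (median 0.00), and at day 4 Igdcc3, Lrrc4 and Mcam were called higher and Dscam lower (44.4% of the list, median 0.05). Limma-voom called 1 higher and 2 lower at day 0 and 4 higher and 1 lower at day 4. Igdcc3, a close relative of neogenin, held 538 and 582 normalised counts in WT and 2427 to 2539 in Nsd1-KO libraries at day 4 (log2 fold change 1.46 ± 0.08, limma adjusted p = 4.51e-12), and 233 and 289 against 220 to 315 at day 0. Lrrc4, a netrin G ligand, was higher at day 4 by 0.88 and Mcam by 0.67, and Dscam, a netrin receptor in neurons, was at -0.58.

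Other ligands and partners of neogenin, DCC and the UNC5 receptors numbered 15, with none called by limma at day 0 (median -0.17) and 4 called lower at day 4 (26.7% of the list, median -0.10). Limma-voom called 1 higher and 6 lower at day 0 and 7 lower at day 4. Adgrl2 rose in WT libraries from 377 and 440 normalised counts at day 0 to 6305 and 6631 at day 4, and held 233 to 257 and 1317 to 2152 in Nsd1-KO libraries at these days (day 4 log2 fold change -1.60 ± 0.11, limma adjusted p = 1.45e-10). Bmp2, a ligand that binds the RGM proteins, which are also ligands of neogenin, was at 755 and 807 in WT and 3.85 to 9.02 in Nsd1-KO libraries at day 4 (-1.85 ± 0.06, limma adjusted p = 1.02e-15). Bmp4 was lower by -1.44 and Cdon, a cell surface partner of neogenin, by -0.71.

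Inside the cell, 24 effectors of DCC and neogenin had 1 member called higher and 1 lower by limma at day 0 (8.33% of the list, median 0.15), and 2 higher and 3 lower at day 4 (20.8%, median -0.07). Limma-voom called 2 higher and 1 lower, then 3 higher and 4 lower. Ablim1, an actin-binding LIM protein, was lower at both days, at 287 and 299 normalised counts in WT against 13.1 to 61 in Nsd1-KO libraries at day 0 (-0.84 ± 0.07, limma adjusted p = 3.99e-08) and at 439 and 465 against 9.12 to 40.6 at day 4 (-1.26 ± 0.07, limma adjusted p = 1.49e-11). Trim67, a ubiquitin ligase of the DCC pathway, was higher at day 0 (0.82) and lower at day 4 (-0.60), with WT libraries at 20.1 and 46 normalised counts on the former day and 1749 and 1870 on the latter. Myo10, the motor that carries DCC along filopodia, and the kinase Pak1 were higher at day 4 by 1.00 and 0.60, and Vasp, an actin regulator, was at -0.81. Of 9 effectors of dependence receptor signalling neither fit called any at day 0 (limma median 0.12), and at day 4 both called Mdm2 higher (0.73) and Appl1, an adaptor that binds DCC, lower (-1.10, 22.2% of the list, median -0.15). Of 8 laminins and integrins that bind netrins, Lama5 (0.62) and Lamb1 (0.61) were called higher by limma at day 0 (25% of the list, median 0.05) and none was called at day 4 (median -0.15). Limma-voom called 3 higher at day 0 and 1 lower, Lama1 (-1.18), at day 4.

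Among guidance families outside the netrin pathway, limma called none of 7 Slit and Robo genes at day 0 (median 0.03), and the ligands Slit2 (-0.78) and Slit3 (-0.65) lower at day 4 (28.6% of the list, median -0.12). Limma-voom called the same pair at day 4, and at day 0 it called both higher (1.17 and 1.04 on the log2 scale of the counts). Of 13 class 3 semaphorins, neuropilins and A plexins, Nrp2 (1.74) and Sema3e (0.89) were higher at day 0 (15.4% of the list, median 0.15). At day 4 Sema3e was higher (0.96) and Plxna2 (-2.16), Nrp2 (-1.09) and Plxna4 (-0.96) lower (30.8%, median -0.04). Limma-voom called 3 higher at day 0 and 3 higher and 5 lower at day 4. Nrp2, a receptor of class 3 semaphorins, held 468 and 496 normalised counts in WT and 2615 to 3148 in Nsd1-KO libraries at day 0, and 2761 and 3102 against 933 to 1244 at day 4, so its order was the opposite at the later day. None of the 8 lists was tested as a set.

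**Figure D5:**
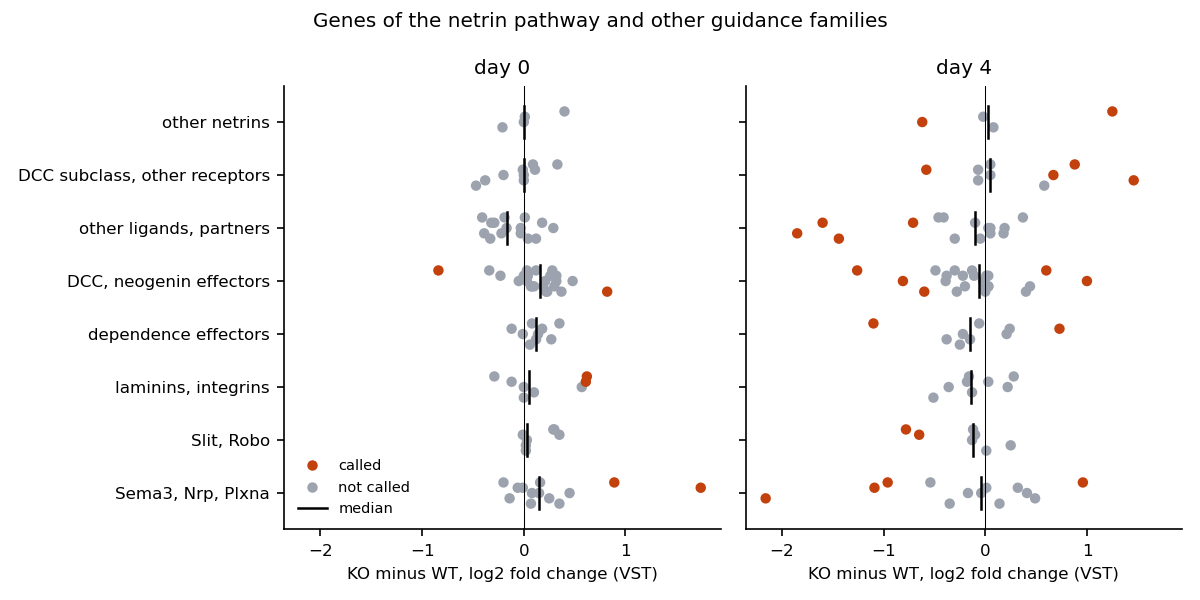
Each row is a list of genes of the netrin pathway or of another guidance family, and the horizontal axis is the log2 fold change of the deposited values, Nsd1-KO minus WT, at day 0 (left) and day 4 (right). Points are genes (orange called, grey not called) and the short black bar is the median of the list. Most lists centre near 0 at both days, and the called genes at day 4 reach from -2.16 (Plxna2) to 1.46 (Igdcc3).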

How the data were processed

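Poly-A RNA was measured in 18 libraries of E14 mESCs (WT, KO-1 and KO-2 at days 0, 2 and 4). Per the methods of the study, the authors trimmed reads with Trim Galore 0.6.7, aligned them to mm39 with STAR 2.7.11a, counted nonduplicated fragments on exons with featureCounts 2.0.6 and removed genes with a mean count under 1. The deposited values are log2-scale variance-stabilised values that the authors made with DESeq2 1.42.0, corrected for library size and not for gene length. These values were inverted to counts, 100.0% of which came out whole within 0.05, with library totals of 9309874 to 23921193. Of the counts from 1 to 20, 74.9% were even, for a reason not given in the sources used here. The lower bounds of Shh and Unc5d rest on a floor of 3 counts per library. They take each count as 1 fragment, which was not tested, and would be smaller if a fragment adds more than 1 count. Intervals and floors cover counting error and the spread of libraries only.

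The deposited values were tested with limma 3.58.1 (R 4.3.3, trended prior variance) in a single fit of 6 groups with KO-1 and KO-2 pooled, or of 9 groups for the comparison of clones. P-values were adjusted by Benjamini-Hochberg over all 20703 genes. Calls needed both an adjusted p below 0.01 and a log2 fold change beyond 0.58 in either direction. The study gives the same numbers for its own analysis of gene counts. For limma the fold threshold was applied here to variance-stabilised values, which compress low values, so it was stricter for genes with low counts. Ntn3 at day 0, with a ratio of means of 6.86, was at 0.40 on this scale and not called. The limma calls are therefore not those of the study. All 8 members entered each fit, with no filter beyond that of the authors. Alternatives were limma-voom on the recovered counts (for members' fold changes, printed beside the others after seeing the data), quantile normalization, centring on the median, a filter on low values, no trend, single days, single clones, a replicate block, other thresholds and each library left out. Scripts were tested on simulated data.

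The members, lists and markers were chosen with earlier results of these data known. The text names all members, Nsd1, up to 4 called genes per list and day (a gene named for 1 day is given at both), the 10 genes most and 3 least like Ntn1, and the 3 most like each other member, except 1 gene that is not reported here. Further markers and uncalled list genes are named as a description. Transcript lengths and positions came from GENCODE M21 (GRCm38), another build than mm39, by Ensembl ID (20599 of 20703 genes, 99.5%), and promoter windows from RefSeq (GRCm38.p6).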

Additional observations from a re-analysis of the deposited data

Results flagged for a closer look

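The Nsd1-KO effect differed between day 0 and day 4 for 3 of the 8 genes, by a test of the difference itself (limma, adjusted over all genes), against 6.93% of all genes. Limma-voom on the recovered counts, which called 14.9% of all genes, added Unc5a (2.18, adjusted p = 0.00769). For Ntn1 the effect at day 4 was larger by 0.84 on the log2 scale. For Unc5b the difference was -1.09, with no call at day 0 and a lower level in Nsd1-KO at day 4. For Unc5c it was -0.60, with 16 to 29.3 normalised counts in Nsd1-KO libraries at day 4 against 147 and 139 in WT, and the call was lost under quantile normalization (-0.57), with KO-2 alone (-0.56) and without KO-1 day 4 replicate 2 (-0.58).

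In 3 groups of 4 Nsd1-KO libraries a single library stood apart from the other three, all in genes with almost no reads. Dcc stood at 8.46 on the deposited log2 scale in KO-1 day 0 replicate 2, where the other Nsd1-KO libraries of the day were at the minimum of 8.36. Unc5d stood at 8.46 in the same library, again with the other Nsd1-KO libraries at 8.36. Dcc stood at the minimum of 8.36 in KO-1 day 4 replicate 1, where the other Nsd1-KO libraries held 4 reads each. These differences are of 2 to 4 reads. For continuous values chance marks about 1 in 20 groups, of which 21 were examined. That rate does not hold where the other libraries are tied at the minimum, as in both day 0 groups.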

How the results depend on the processing

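The calls of Ntn1 at days 0 and 4 and in the difference between effects, of Neo1 at day 4 (0.58 to 0.89), and of Unc5b at day 4, in both time courses and in the difference between effects were kept under the normalizations, filter, priors, single days, single clones, replicate block and left-out libraries that were run. Across single results, 540 comparisons with another setting kept direction and side of the threshold, 12 passed it, 4 lost it and 20 moved in value, and with 1 library left out the numbers were 1437, 5, 10 and 6. No fold change that was called changed sign.

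In the order Nsd1-KO against WT at days 0, 2 and 4, WT day 4 against day 0, Nsd1-KO day 4 against day 0 and the difference between effects, then KO-1 against KO-2 at days 0, 2 and 4, limma-voom on the recovered counts called 2752, 4949, 4957, 7186, 5691, 3085, 33, 48 and 462 genes. An adjusted p under 0.05 with no fold threshold called 6149, 9515, 7700, 10153, 9848, 5580, 114, 200 and 2645, and a fold threshold of 1 called 80, 277, 553, 1024, 353, 467, 0, 1 and 0. As reported, the calls were 541, 1321, 1569, 2864, 1345, 1435, 6, 9 and 52. Of the calls between Nsd1-KO and WT, 359 were higher and 182 lower at day 0 and 831 and 490 at day 2, and limma-voom gave 1331 and 1421, and 2136 and 2813. Limma-voom moved the median of all genes to -0.14 at day 2 and -0.10 in the WT time course, and Ntn1 and Unc5b kept their directions relative to it. The cause of the larger limma-voom counts was not tested.

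Of the members, limma-voom called 3 at day 0, 5 at day 4, 5 in the Nsd1-KO time course and 4 for the difference between effects. The adjusted p under 0.05 alone called 4, 5 and 6, with 5 for the difference between effects and 1 between clones at day 4. Between clones at day 2 that threshold passed 2, Unc5b and Ntn1, a description only since the day 2 values chose Ntn1. The fold threshold of 1 left 2 members at day 4, where Neo1 (0.64) was no longer called, 1 in the WT time course and 1 in the difference between effects. With KO-1 alone the Nsd1-KO time course called 2 members, as Ntn1 reached 0.58. For the difference in Unc5c, quantile normalization gave -0.57 and KO-2 alone -0.56, both just under the fold threshold. With the shortest transcripts the ratio of Ntn1 to Unc5b in WT at day 0 was reversed to 2.34.

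With single libraries left out, calls ranged from 526 to 559 at day 0, 1190 to 1431 at day 2, 1544 to 1618 at day 4, 2822 to 2881 in the WT and 1326 to 1368 in the Nsd1-KO time course and 1395 to 1486 for the difference between effects. The members called were 1, 3 and 3 at day 0, day 4 and in the WT time course each time, 1 to 2 in the Nsd1-KO time course, and 2 to 3 for the difference between effects. Ntn1 passed the threshold in the Nsd1-KO time course without KO-1 day 0 replicate 1 or 2 or KO-2 day 4 replicate 1 or 2 (0.58 to 0.60). Calls between clones ranged from 4 to 54 at day 0 (54 without KO-1 day 0 replicate 2), 6 to 10 at day 2 and 21 to 194 at day 4 (21 without KO-2 day 4 replicate 1, 22 without KO-1 day 4 replicate 1 and 194 without KO-1 day 4 replicate 2), and no member was called in any of them.

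Same-numbered libraries did not deviate in the same direction across all pairs of groups. Over 10351 genes the correlation of their deviations averaged -0.0476 in 36 pairs of groups, from -0.612 to 0.636, with 13 over 0.1. Some pairs of groups thus deviated together and others in opposite directions, so the numbers were not taken as pairs. With the replicate block the calls were 540, 1315, 1568, 2861, 1345, 1431, 6, 8 and 51 in the order above, and no call of a member changed. The filter on the 25th percentile left 6 members, without Dcc and Unc5d. Depth limits these 2 genes, whose counts were 12 or lower in all libraries, and the 2 shallow WT libraries of day 2 limit every value of that day. At day 0, KO-1 replicate 1 (9644240 counts) and WT replicate 2 (10522426) were almost as shallow, which limits that day as well.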

Other observations

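The genes most like the other members over the 18 libraries are given by Pearson's r, as a description. Unc5b was followed by Cnn1 and Ctdsp1 (0.98 each) after Adgrl2, and Unc5c was most like Tapbp (0.98), Sfn and Ptprn (0.97 each). Neo1 was followed by Ints3 and Pygb (0.97 each) after Ntn1. Unc5a was most like Ube2t (0.97), Dync2i2 and Atp5a1 (0.96 each). For the scarce genes the values were lower, with AI506816 (0.93), Ppp1r9b (0.91) and Lgmn (0.89) for Ntn4, Gipc1, Ccdc34 (0.88 each) and Nepro (0.85) for Unc5d, and Kmt5a, Pdap1 and Anp32b (0.84 each) for Dcc.

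Of the 48 measured genes that lie nearest to the 8 members, 3 on each side, limma called none at day 0 and 4 (8.33%) at day 4, against 7.58% of all genes at day 4. These were Usp44 near Ntn4 (log2 fold change 1.31), Rec114 near Neo1 (0.59), and Pdlim5 and Gbp7 near Unc5c (-0.80 each). Limma called no neighbour of Dcc, Unc5a, Unc5b or Unc5d.

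Markers of other lineages also differed at day 4. The sum over 5 primitive endoderm markers was 1417 and 1515 in WT and 115 to 147 in Nsd1-KO libraries, with Gata6 (-1.48) and Pdgfra (-1.51) called lower, and the sum over 4 trophoblast markers was 1504 and 1575 against 212 to 365, with Cdx2 (-1.27) and Krt7 (-1.01) called lower.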
